A study of Bos taurus with 6 samples.

Results

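Keratins are the intermediate filament proteins of epithelia. Each filament pairs a type I with a type II keratin, and linkers such as plectin tie the filaments to junctions and to the rest of the cytoskeleton. In the early embryo, keratins mark the trophectoderm, the first epithelium to form, whereas vimentin is the type III filament protein best known from mesenchymal cells. The genes described here were KRT5, KRT7, KRT8, KRT10, KRT18, KRT19, VIM, PLEC and TGM1, and every probe set that the platform's annotation named for one of them was kept. This gave 9 probe sets for 8 of the 9 genes, out of 24036 probe sets in the deposited table. No probe set was named for PLEC, so plectin was not analysed here. VIM is no keratin, and TGM1 is an enzyme that crosslinks proteins under the membrane of keratinized cells.

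Degenerative embryos and blastocysts, both of in vitro fertilization (IVF) origin in cattle, were compared on day 8 of culture, with 3 pools of each and 20 embryos in a pool. Degenerative embryos had compacted by the morula stage but then formed no distinct inner cell mass or blastocoele, whereas blastocysts had formed both. All embryos had been found compacted earlier in culture, and each pool mixed embryos of several cows and bulls. Each pool was measured on a single Affymetrix Bovine Genome Array, and the pools of each group carry the letters A, B and C. Values are GCRMA expression on the log2 scale, on which 1 unit is a 2-fold difference and the floor is 2.12. Differences are degenerative embryos minus blastocysts. They were tested with limma over 18937 probe sets, and a probe set was called where the adjusted p (Benjamini-Hochberg) did not exceed 0.15, the rate the study set. The probe sets measure different sequences, so levels are compared between pools and not between genes. In pooled embryos, fewer cells of a type and less RNA per cell cannot be told apart.

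None of the 9 probe sets was called by limma, where 0.0211% of all probe sets were, and none by SAM, the test used in the methods, where 0.354% were. An unadjusted limma p under 0.05 was found for 2 of the 9, a bright probe set of KRT5 and that of TGM1, against 8.61% of all probe sets. These 2 were also the only ones whose pools did not overlap between the groups, against 15.4% of all probe sets tested. KRT5 was higher in degenerative embryos, where non-overlap in that direction was found for 6.48% of probe sets, and TGM1 was lower, where it was found for 8.93%. The group means differed by more than 2-fold for 4 of the 9, namely KRT5, VIM, KRT19 and TGM1, compared with 10.9% of all probe sets. The median difference over the 9 probe sets was -0.04, and over all probe sets tested it was 0.00. Pools of the same group differed widely for these genes. The median of the pooled standard deviation within groups was 0.88 for the 9 probe sets and 0.38 for all, and 5 of the 9 lay among the 20% of probe sets with the largest spread.

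**Figure D1:**
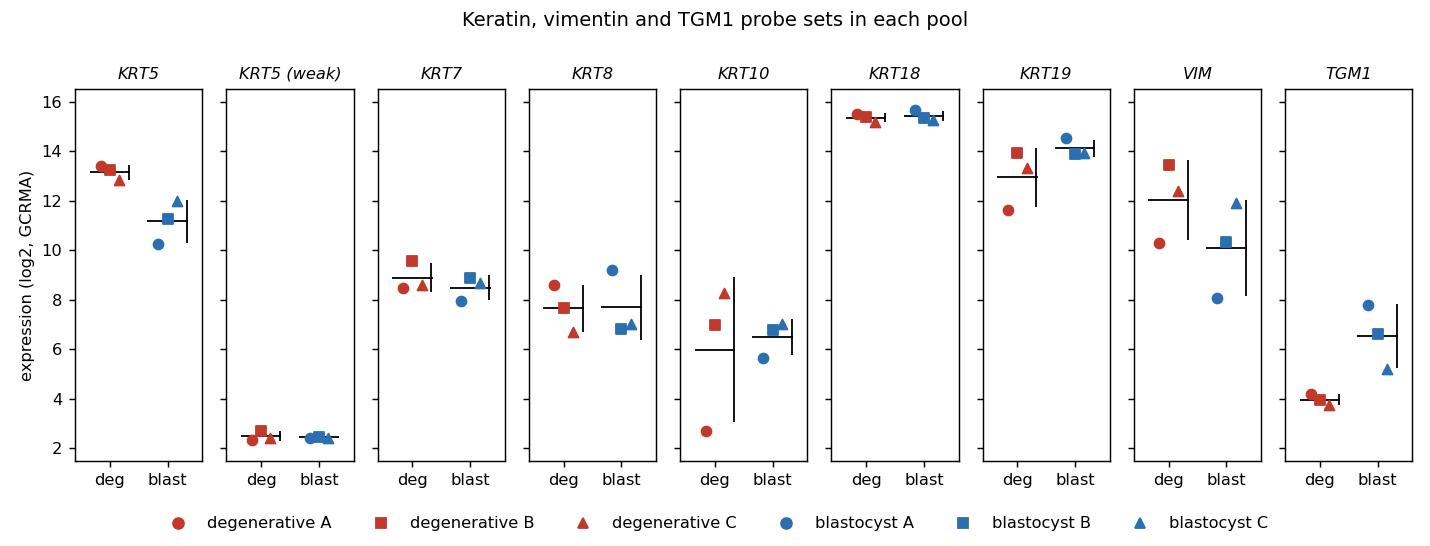
Log2 GCRMA values (vertical axis) of each keratin, VIM and TGM1 probe set in the 3 degenerative pools (red, deg) and the 3 blastocyst pools (blue, blast), with a marker shape for each letter. Horizontal lines are group means and vertical lines are 1 SD either side. The pools separate only for the bright KRT5 probe set, from 12.82 to 13.39 in degenerative embryos against 10.25 to 11.98 in blastocysts, and for TGM1, while KRT18 stays between 15.17 and 15.65 in all pools.

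KRT8 and KRT18, which pair with each other in simple epithelia and are the first keratins of the trophectoderm in the mouse, showed no separation of the groups. The KRT18 probe set was at 15.52, 15.37 and 15.17 in degenerative pools A, B and C, against 15.65, 15.34 and 15.26 in blastocyst pools A, B and C. The groups overlapped almost fully, and the difference was -0.06 (standard error 0.15, 95% interval -0.45 to 0.33, adjusted p = 0.910 from limma). This was the tightest of the bright member probe sets, with a pooled SD of 0.19, less than that of most probe sets. It also lay close to the top of the scale, since the highest value of any probe set was 15.71 to 16.12 on the 6 arrays, and whether the signal was compressed there was not tested.

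The probe set named for KRT8 was at 8.58, 7.66 and 6.70 in degenerative pools A, B and C, against 9.21, 6.82 and 7.03 in blastocyst pools A, B and C. The A pool was the highest of its group in both, and the difference of -0.04 had a 95% interval from -2.31 to 2.23 (adjusted p = 1 from limma), too wide to show either a change or its absence. Without degenerative pool C the difference was 0.43, and without blastocyst pool A it was 0.72. Another probe set has the same number in its identifier, but the annotation gives it no gene, so it is no member. Its values were 10.57, 11.01 and 10.68 in degenerative pools, against 11.33, 10.83 and 10.96 in blastocyst pools. It varied less between pools than the named one and differed by -0.29 (95% interval -0.77 to 0.20, adjusted p = 0.717 from limma), with overlap between the groups.

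KRT7 and KRT19, a type II and a type I keratin of simple epithelia, differed in opposite directions and overlapped between the groups. KRT7 was at 8.49, 9.57 and 8.61 in degenerative pools A, B and C, against 7.93, 8.86 and 8.68 in blastocyst pools A, B and C. Its difference of 0.40 (standard error 0.41, 95% interval -0.68 to 1.48, adjusted p = 0.740 from limma) rested on single pools, as it was 0.06 without degenerative pool B and 0.12 without blastocyst pool A. KRT19 was at 11.61, 13.91 and 13.31 in degenerative pools A, B and C, against 14.52, 13.91 and 13.94 in blastocyst pools A, B and C. Degenerative pool A stood lowest, and the B pools of both groups had the same value to 2 decimals. The mean was 2.27-fold lower in degenerative embryos (log2 difference -1.18, standard error 0.66, adjusted p = 0.668 from limma), and the difference was -0.51 without degenerative pool A and -0.39 with arrays weighted by their quality. The spread was 1.19 among degenerative pools and 0.35 among blastocyst pools (SD, n = 3 each).

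KRT5, a type II keratin of the basal layer of stratified epithelia, where it pairs with KRT14, had the largest positive difference of the members. Its bright probe set was at 13.39, 13.23 and 12.82 in degenerative pools A, B and C, against 10.25, 11.26 and 11.98 in blastocyst pools A, B and C. All degenerative pools lay above all blastocyst pools, by at least 0.85. The mean was 3.96-fold higher in degenerative embryos (log2 difference 1.98, standard error 0.49, 95% interval 0.70 to 3.26), a difference larger in size than that of 98.3% of probe sets. Its unadjusted limma p was 0.0110 and its adjusted p was 0.487, so it was not called. The difference stayed between 1.53 and 2.39 when any single pool was left out, and with the same letter compared it was 3.13 for A, 1.97 for B and 0.85 for C. The exact permutation test of the means gave p = 0.1, two-sided, for KRT5 and for TGM1, the smallest that 3 pools against 3 allow.

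The second probe set of KRT5, built from another sequence, did not share this pattern. It stayed near the floor, at 2.34, 2.71 and 2.43 in degenerative pools A, B and C and 2.43, 2.48 and 2.43 in blastocyst pools A, B and C. The difference was 0.05 (95% interval -0.24 to 0.33, adjusted p = 0.903 from limma). At such a signal a change of the transcript may be compressed, which was not tested, so this probe set is read as neither repeating nor opposing the bright one. Whether both probe sets report KRT5 was not tested either. KRT14, the usual partner of KRT5, was also dim, at 2.52, 3.29 and 3.29 in degenerative pools and 3.29, 3.32 and 4.66 in blastocyst pools (log2 difference -0.73, adjusted p = 0.719 from limma).

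KRT10, a type I keratin of the upper layers of the epidermis, varied more between pools than nearly any other gene. Its probe set was at 2.69, 7.0 and 8.28 in degenerative pools A, B and C, against 5.65, 6.78 and 7.04 in blastocyst pools A, B and C. Degenerative pool A was close to the floor while degenerative pool C was the highest of all 6, so that the blastocyst pools lay inside the range of the degenerative ones. The pooled SD of 2.14 exceeded that of 99.4% of probe sets. The difference of -0.50 had a 95% interval from -4.72 to 3.72 (adjusted p = 0.948 from limma) and was 1.15 without degenerative pool A.

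TGM1, transglutaminase 1, joins proteins into the cornified envelope of keratinocytes. Its probe set was at 4.18, 3.95 and 3.74 in degenerative pools A, B and C, against 7.81, 6.60 and 5.22 in blastocyst pools A, B and C. The highest degenerative pool lay 1.04 below the lowest blastocyst pool, and degenerative pools varied less among themselves (SD 0.22) than blastocyst pools did (SD 1.30, n = 3 each). The mean was 5.99-fold lower in degenerative embryos (log2 difference -2.58, standard error 0.70, 95% interval -4.42 to -0.75), which ranked 98 by size among 18937 probe sets. Its unadjusted limma p was 0.0159 and its adjusted p was 0.514, so it was not called. The difference was -3.24 to -1.95 when any single pool was left out, and letter by letter it was -3.63 for A, -2.65 for B and -1.48 for C. The degenerative pools lay low on the scale, where differences may be compressed, which was not tested.

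**Figure D2:**
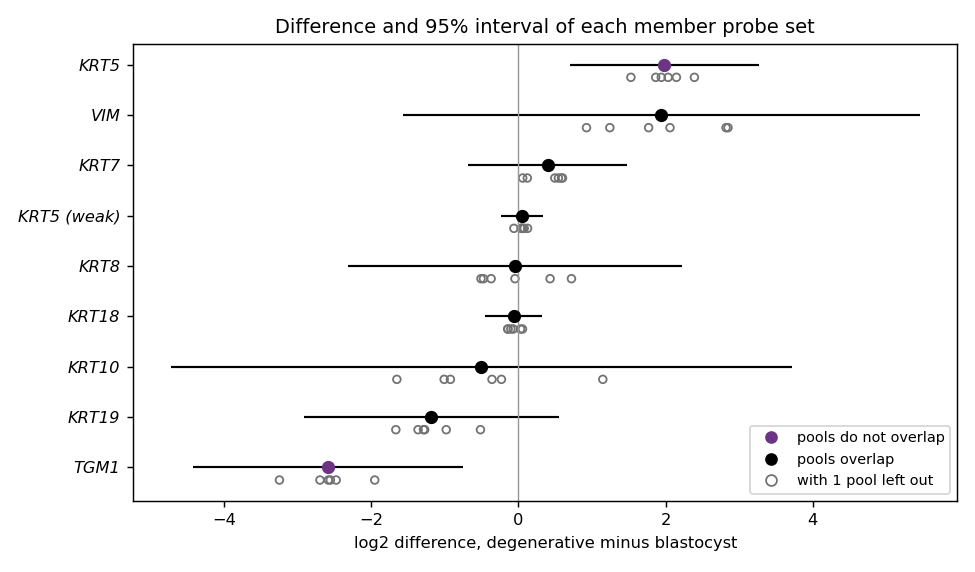
Log2 difference between the group means, degenerative minus blastocyst (horizontal axis), for each member probe set, with the 95% interval from limma as a line. Open circles give the difference with 1 pool left out at a time, and purple marks probe sets whose pools do not overlap. The intervals of TGM1 and of the bright KRT5 probe set leave out 0, and the others include it. KRT10 has the widest, from -4.72 to 3.72.

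Signals of RNA quality differed in part between the groups. The array carries control probe sets at both ends of some transcripts. For the initiation factor eIF-4E, the 3' signal exceeded the 5' signal by 9.13 to 9.87 in degenerative pools and by 6.60 to 8.59 in blastocyst pools, without overlap, and the gap was smallest in blastocyst pool A. For GAPDH this gap was 2.48 to 2.52 in degenerative pools and 1.83 to 2.89 in blastocyst pools, with overlap. For cyclophilin it was 2.52 to 3.22 in degenerative pools and 2.13 to 2.72 in blastocyst pools, again with overlap. For the elongation factor it was 0.52 to 0.83 in degenerative pools and -1.65 to 0.87 in blastocyst pools. TGM1 was highest, and KRT5 lowest, in blastocyst pool A as well. The part of RNA quality in these differences was not tested.

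VIM had the second largest positive difference, but its pools overlapped and their spread was wide. Its probe set was at 10.28, 13.44 and 12.38 in degenerative pools A, B and C, against 8.05, 10.32 and 11.90 in blastocyst pools A, B and C. The A pool was the lowest of its group in both, and degenerative pool A lay below blastocyst pools B and C. The mean was 3.85-fold higher in degenerative embryos (log2 difference 1.94, standard error 1.34, 95% interval -1.57 to 5.45, adjusted p = 0.727 from limma). Compared letter by letter, VIM was higher in degenerative embryos by 2.23 for A, 3.12 for B and 0.49 for C. A common direction in all letters was found for 3 of the 9 probe sets (KRT5, VIM and TGM1) and for 34% of all probe sets. With the letter as a block, the adjusted p of VIM was 0.535, and without blastocyst pool A the difference was 0.93.

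Some genes of stroma shared a part of the VIM pattern over the pools. Lumican (LUM), a proteoglycan of connective tissue, was at 5.0, 11.07 and 10.95 in degenerative pools A, B and C, against 5.25, 8.40 and 10.15 in blastocyst pools A, B and C. Decorin (DCN), another such proteoglycan, was at 2.17, 9.80 and 8.87 in degenerative pools, against 3.24, 6.08 and 7.40 in blastocyst pools. Both were lowest of their group in the A pools, as VIM was. Unlike VIM, both were lower in degenerative pool A than in blastocyst pool A. Over the 8 tested genes of the list for blood and stroma, the summed level (log2 of the sum of linear values) was 9.84 to 12.43 in degenerative pools and 9.43 to 11.27 in blastocyst pools. Of the 8, 5 were higher and 3 lower in degenerative embryos. PECAM1 was the only one whose pools did not overlap, and it was lower in degenerative embryos. It was at 7.64, 7.35 and 7.25 in degenerative pools A, B and C, against 7.66, 7.79 and 7.98 in blastocyst pools A, B and C. Of the defining genes of the list, COL1A1, a chain of type I collagen, stayed at the floor in all pools (2.12 to 2.15). COL1A2, the other chain, was at 9.35, 11.12 and 9.84 in degenerative pools, against 8.65, 8.93 and 9.78 in blastocyst pools. Over 10 tested genes of cumulus and granulosa cells, which surround the oocyte, the summed level was 11.06 to 12.01 in degenerative pools and 10.54 to 11.06 in blastocyst pools, which did not overlap but met to 2 decimals. Of these genes, 6 were higher and 4 lower in degenerative embryos. INHBA, a subunit of activin, was the only one whose pools did not overlap, at 8.70, 9.03 and 7.84 in degenerative pools A, B and C, against 3.71, 6.64 and 7.68 in blastocyst pools A, B and C. PTX3, a matrix protein of the expanded cumulus, was named after its values were seen, with a log2 difference of 3.02 and overlap. HAS2, STAR and FST, the other bright genes of the list, differed by 0.45, 0.31 and 0.19 with overlap. HAS2, the brightest of the list, weighs most in its summed level. LHCGR and INHA were at the floor in all pools, and aromatase (CYP19A1) was at 2.55 to 2.75 in degenerative pools, against 2.60 to 6.69 in blastocyst pools. The part of such cells in the VIM values was not tested.

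**Figure D3:**
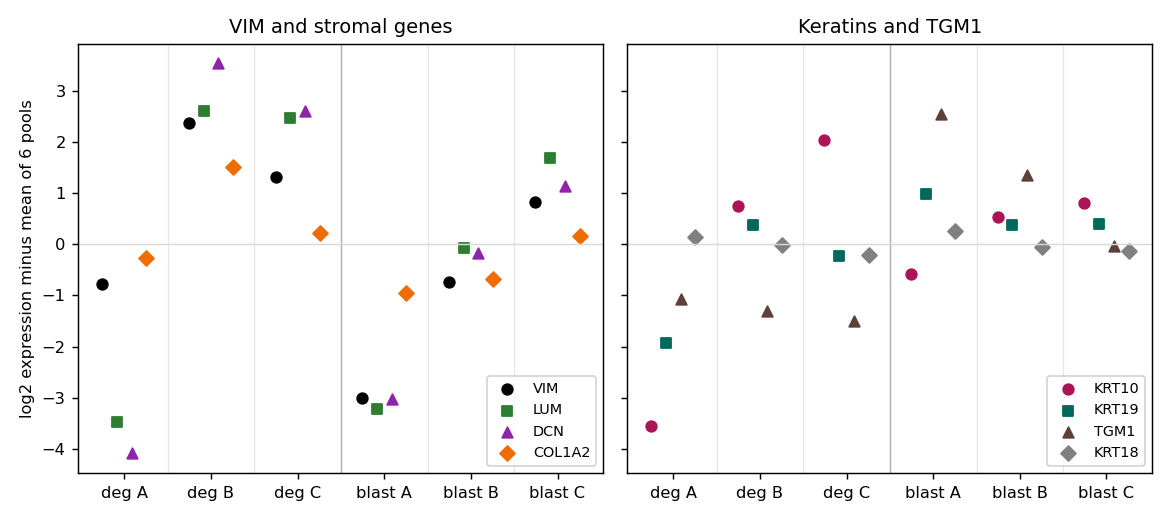
Log2 expression of each gene minus its mean over the 6 pools (vertical axis) in degenerative (deg) and blastocyst (blast) pools A, B and C. On the left, VIM, LUM and DCN lie below their means in both A pools, and COL1A2 does so by less. On the right, KRT10 spreads by 5.59 among degenerative pools, KRT19 is lowest in degenerative pool A, TGM1 is below its mean in all degenerative pools and KRT18 stays close to 0.

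Simple keratins are made in the trophectoderm. Of 12 other markers listed for that layer, 7 had a named probe set and were tested, and CDX2 and GATA3 were not among them. Of the 7 tested, 5 were lower in degenerative embryos and 2 higher. The pools of 4 of the lower ones did not overlap, against 18.1% of all genes tested. These were PTGS2, DAB2, ATP1B3 and CGN, the last named after its values were seen. TEAD4, the brightest after PTGS2, DAB2 and ATP1B3, differed by 0.02 with overlap. None of the markers was called, and they were not tested against the keratins. Their summed level was 15.52 to 15.57 in degenerative pools and 15.91 to 16.27 in blastocyst pools, without overlap. ATP1B3, the brightest of them, weighs most in this sum, with a mean of 14.85 in degenerative pools and 15.18 in blastocyst pools. For the 3 tested genes of the inner cell mass and epiblast, POU5F1, SOX2 and KLF4, the summed level was 14.18 to 14.98 in degenerative pools and 13.93 to 14.06 in blastocyst pools, also without overlap. KLF4, which is also in the list of epithelial transcription factors, weighs most in that sum. Its mean was 13.87 in degenerative pools and 13.36 in blastocyst pools. SOX2, the dimmest of the 3, overlapped. The hypoblast genes overlapped, at 15.79 to 16.02 in degenerative pools and 15.79 to 15.96 in blastocyst pools. CTSV, at 15.19 to 15.34 in degenerative pools and 15.19 to 15.45 in blastocyst pools, weighs most there, so that dimmer genes such as GATA4 (log2 difference 1.17, with overlap) hardly move the sum. Genes of spermatozoa did so too, at 5.25 to 6.09 in degenerative pools and 5.20 to 7.54 in blastocyst pools. The part of the makeup of the embryos in the keratin values was not tested.

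The patterns most like those of KRT8, KRT18, KRT19 and VIM over the 6 pools were found by Pearson's r among 4795 named probe sets whose mean reached 5 and whose range reached 1. With 6 pools and so many probe sets, high values of r arise readily, so these are descriptions. VIM was followed by TCIM (r = 0.997), MRC2, a collagen receptor (r = 0.996), and IGFBP7, a secreted binding protein of growth factors (r = 0.995), all higher in degenerative embryos, with log2 differences of 1.90 to 2.30. KRT19 was followed by TMEM97, a regulator of cholesterol transport (r = 0.992), IMPA1 (r = 0.992) and BHLHE40, a transcriptional repressor (r = 0.992), all lower, with log2 differences of -1.38 to -0.87. KRT8 was followed by TXNL1, FOS and VPS50 (r = 0.999 to 0.994) and KRT18 by RBM6, GTF2IRD1 and SLC20A1 (r = 0.993 to 0.992), with differences of -0.30 to 0.13.

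Of 121 other genes of filaments, linkers and epithelia, listed by role, 56 were tested with 1 probe set each. None was called by limma or SAM. In degenerative embryos 34 were higher and 22 lower, where 4465 of all 8189 genes tested were higher. Of the 56, 7 had a mean under 3 over both groups, near the floor, where the direction says little. The pools of 14 did not overlap, where 18.1% of all genes tested did not. An unadjusted limma p under 0.05 was found for 8 of the 56, 4 in each direction, and for 846 of all 8189 genes tested. The other keratins gave little signal, which for a single probe set, as with KRT5, does not show that the gene was off. Of 11 with a probe set, 4 had the same value on all arrays, and among the 7 tested, only KRT15, a keratin of basal cells, passed 5 in a pool, at 5.44, 4.51 and 4.02 in degenerative pools A, B and C, against 3.64, 4.01 and 4.02 in blastocyst pools A, B and C (adjusted p = 0.647 from limma). None of the 7 separated the groups.

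Among the other intermediate filaments, 6 of 7 were higher in degenerative embryos, DES among them only near the floor (2.17 against 2.12). The neurofilament genes NEFL and NEFM did not overlap. NEFL was at 9.52, 10.02 and 9.39 in degenerative pools A, B and C, against 6.08, 8.20 and 7.97 in blastocyst pools A, B and C (log2 difference 2.23, adjusted p = 0.532 from limma). NEFM differed by 1.82 (adjusted p = 0.542 from limma). The lamins LMNA and LMNB1, which line the nucleus, differed by 0.57 and -0.32 with overlap. Of the plakins and desmosomal linkers, 3 were higher and 5 lower, with differences of -0.37 to 0.43 and MACF1, a plakin that joins actin to microtubules, at -0.19. Only TCHP, a protein that binds keratin filaments, did not overlap, at a difference of -0.14, and its groups met to 2 decimals at 5.41.

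Both tested genes of the hemidesmosome did not overlap, in opposite directions. COL17A1, a collagen of the hemidesmosome, which plectin ties to keratin, was at 6.67, 5.21 and 4.03 in degenerative pools A, B and C, against 2.91, 2.86 and 3.02 in blastocyst pools A, B and C. Its blastocyst pools were near the floor (log2 difference 2.37, adjusted p = 0.532 from limma). CD151, a tetraspanin of the same structure, was lower, with a log2 difference of -0.36 (adjusted p = 0.578 from limma). TGM2, the tissue transglutaminase, stood opposite to TGM1, at 8.69, 8.54 and 8.12 in degenerative pools, against 6.48, 7.26 and 7.40 in blastocyst pools (log2 difference 1.40, adjusted p = 0.471 from limma). F13A1, the transglutaminase of blood clotting, was also higher without overlap (log2 difference 1.54, adjusted p = 0.674 from limma). It was at 5.86, 3.59 and 2.66 in degenerative pools A, B and C, against 2.45, 2.45 and 2.58 in blastocyst pools A, B and C. Degenerative pool C and all blastocyst pools were thus near the floor. Of the envelope substrates tested, ANXA1 and S100A10 were lower in degenerative embryos without overlap, with log2 differences of -0.57 and -0.71. S100A11 overlapped, at 6.28, 11.72 and 11.45 in degenerative pools A, B and C, against 9.68, 10.19 and 11.32 in blastocyst pools A, B and C. Of the 13 keratin partners tested, 10 were higher and 3 lower, with OGT among the higher ones only near the floor (2.19 against 2.18). YWHAZ and SFN, 14-3-3 proteins, were lower without overlap, at -1.34 and -1.27 (adjusted p = 0.537 and 0.650 from limma). SFN was at 5.12, 6.89 and 6.92 in degenerative pools A, B and C, against 8.40, 7.20 and 7.12 in blastocyst pools A, B and C. Its B and C pools thus differed far less than its A pools. The other 14-3-3 genes overlapped, with YWHAE at -0.37, YWHAH at 0.12 and YWHAQ at 0.16. TFAP2A, a transcription factor of trophectoderm and epidermis, had the difference of largest size in these lists, at 4.78, 6.98 and 6.47 in degenerative pools, against 9.26, 8.96 and 8.70 in blastocyst pools (log2 difference -2.90, adjusted p = 0.470 from limma). Of the 8 epithelial transcription factors tested, 3 were higher and 5 lower. KLF4 was higher without overlap, at 0.51. The rest overlapped, with ELF5 at -1.10, GRHL1 at -0.68, KLF5 at -0.34, ELF3 at -0.19, TEAD4 at 0.02 and OVOL1 at 0.005. Of the 6 tested genes that are read with VIM in mesenchymal cells, 4 were higher and 2 lower. ACTA2, an actin of smooth muscle, was lower without overlap (-2.45, adjusted p = 0.604 from limma). SNAI1 and ZEB1, repressors of epithelial genes, differed by 1.18 and 0.91 with overlap. CDH2, FN1 and S100A4 overlapped too, at 0.49, 0.23 and -0.29.

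**Figure D4:**
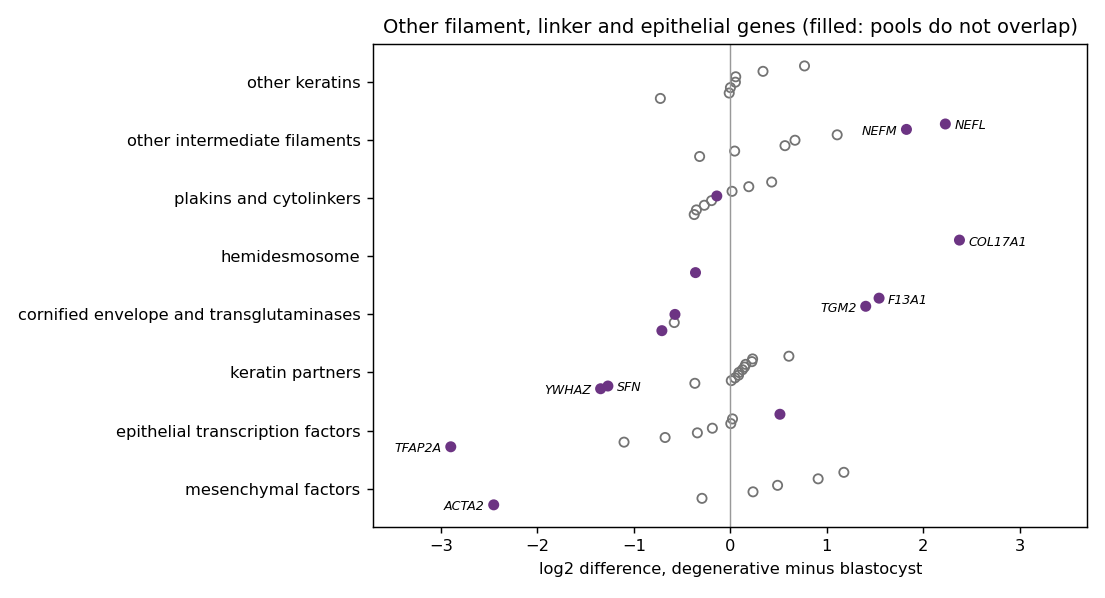
Log2 difference, degenerative minus blastocyst (horizontal axis), of 1 probe set per gene for lists of genes related to keratin filaments (vertical axis). Filled circles are genes whose pools do not overlap, 14 of 56, and those that also differ by more than 1 are named. TFAP2A at -2.90 and ACTA2 at -2.45 lie farthest to the left and COL17A1 at 2.37 farthest to the right, and none passed the limma threshold.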

How the data were processed

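RNA from pools of embryos was amplified before labeling, in a single round per the labels and in 2 rounds with labeling in the second per the methods, from a primer at the poly(A) tail. The deposited values are log2 expression per probe set, which the authors made with GCRMA 2.14.1 (background from probe sequence, quantile normalization, median polish). Arrays have no read depth, and the number of pools limits the precision. Left out were 20 control probe sets and 5079 with a single value on all arrays, as in the methods. The platform's annotation supplied the gene names, brought up to date by gene number through the ARS-UCD2.0 table for 10982 of 11002 named probe sets. No sequences were used.

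The test was limma (lmFit and eBayes, version 3.58.1, R 4.3.3), and SAM was written again after its description, over all 20 relabelings. Both were tested on simulated data. The p-values set the difference between the groups against the spread between pools, and the pools shared bulls. Lists used the probe set with the highest mean for each gene. Named genes were all members, up to 4 genes per list by the smallest p, up to 4 markers by the highest mean, and 3 genes most like KRT8, KRT18, KRT19 and VIM. Others were chosen after their values were seen. Members and lists were chosen with earlier results of these data known.

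Nothing in the labels says what the letters share. Deviations from the group means correlated between pools of the same letter, at r = 0.37 for A, 0.18 for B and 0.27 for C across probe sets, so the letter was also fitted as a block. Other alternatives were array centring, quantile normalization again, filters on low values, a trend with robust spread, array weights, a wider threshold of 0.25 and leaving out each pool.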

Additional observations from a re-analysis of the deposited data

How the results depend on the processing

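Over 15 alternatives, the number of member probe sets called was 0 in each, at a threshold of 0.25 and with SAM as well, and so was that of the other lists, where every probe set of a gene was also tried. The replicate block called no member and none of all 18937 probe sets. With it, 2 of the 9 probe sets had an unadjusted limma p under 0.05, against 1789 of all 18937. The differences with the block are by construction those without it (1.98 for the bright KRT5 probe set, -2.58 for TGM1). The pools of 2 or 3 members did not overlap in the settings that change the values, the filter or the pools used. With a pool left out, groups separate more readily, and the shares over all probe sets in these settings are not given here. The median difference was -0.14 to 0.13 when a pool was left out. KRT5 (bright), KRT7, KRT19, VIM and TGM1 kept their direction in all alternatives, and the signs of the other 4 depended on the pools used. Leaving out 1 pool gave -0.51 to 0.72 for KRT8, -1.65 to 1.15 for KRT10, -0.15 to 0.056 for KRT18 and -0.061 to 0.13 for the weak KRT5 probe set, which the filter on dim probe sets removed. With array weights KRT8 was at 0.34, KRT10 at 0.36 and KRT19 at -0.39. None of these differences was called. Over all 18937 probe sets limma called 4, and 0 to 57 in the alternatives, with 33 when degenerative pool A was left out. The adjusted p from limma ranged from 0.25 to 0.838 for KRT5 (bright) and from 0.303 to 0.838 for TGM1.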
